A study of Mus musculus with 50 samples.

Results

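Hepcidin, the peptide hormone that hepatocytes release to limit the entry of iron into the blood, was followed in mouse liver RNA together with its duplicate gene and the genes of iron sensing and export around it. The 9 genes were taken by name from a list of hepcidin and iron-handling genes (Hamp, Hamp2, Tfr2, Tfrc, Trf, Slc40a1, Bmp6, Id1 and Smad7), and all 9 were among the 12185 genes of the authors' table of normalized expression. The 50 libraries came from the caudate lobe of the liver of offspring of a backcross between chromosome substitution strains, called N2 by the study. The deposited labels call the mice F2, adult and male, while the study measured its traits in both sexes. The animals were fasted overnight at 5 weeks of age, and their genome was C57BL/6J except on chromosomes 4 and 6, where recombinant A/J segments segregated. They formed a single group, N2 liver, with no treatment or control arm, and genotypes were not used here. None of the 9 genes lies on chromosome 4 or 6. Some of the other genes named below do, among them Tatdn2 and Atoh8 on chromosome 6. Id3, Mup8 and Aldh1b1 are on chromosome 4. The part of the segregating segments in the values of these genes was not tested.

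Iron export into the blood runs through ferroportin, the product of Slc40a1, which hepcidin binds and removes from the cell surface. The liver sets hepcidin by sensing iron. BMP6, a ligand made mainly by sinusoidal endothelial cells, acts on BMP receptors of the hepatocyte with the coreceptor hemojuvelin, and SMAD proteins then switch on Hamp along with Id1 and Smad7, the latter an inhibitor that feeds back on the same pathway. Transferrin (Trf) carries iron in plasma, transferrin receptor 2 (Tfr2) helps hepatocytes read how much of it is loaded, and transferrin receptor 1 (Tfrc) takes it into cells. Iron regulatory proteins bind small stem-loops in the untranslated regions of several of these messages when the cell is short of iron, which protects the Tfrc transcript and blocks translation of the Slc40a1 transcript. Inflammation raises hepcidin by a separate route, from IL6 through STAT3.

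The promoters of Hamp and Hamp2 are shown because the genes are near copies that read out differently in these livers. Both are from the RefSeq promoter table of GRCm38.p6 and cover the 250 bases before the start annotated by RefSeq, on the minus strand of chromosome 7. The Hamp window is chr7:30944030-30944279 and the Hamp2 window is chr7:30924182-30924431. Gene positions given below are from GENCODE M21, where Hamp2 starts farther upstream, at 30924681, so its window lies within that gene. Capitals mark the BMP response element GGCGCC, or the bases aligned with it, and the STAT3 site TTCTTGGAA.
Hamp: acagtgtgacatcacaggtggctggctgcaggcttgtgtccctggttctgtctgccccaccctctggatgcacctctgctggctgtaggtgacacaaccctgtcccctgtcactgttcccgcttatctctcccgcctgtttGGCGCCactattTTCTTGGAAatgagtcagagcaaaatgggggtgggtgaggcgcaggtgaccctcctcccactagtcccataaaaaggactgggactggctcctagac
Hamp2: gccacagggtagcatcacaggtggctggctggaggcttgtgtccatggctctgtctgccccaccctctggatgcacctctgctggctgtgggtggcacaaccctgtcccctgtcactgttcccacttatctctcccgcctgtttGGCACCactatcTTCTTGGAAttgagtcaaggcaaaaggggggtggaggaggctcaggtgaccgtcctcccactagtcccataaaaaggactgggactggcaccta
In the alignment of both windows, 89.7% of 253 columns were identical. Hamp held GGCGCC from 109 to 104 bases before its start, and Hamp2 held GGCACC at the aligned place, the substitution G4A counted from 1 at the first base of the motif. The STAT3 site was the same in both, from 97 to 89 bases before the start of Hamp and from 94 to 86 bases before that of Hamp2. Each motif was searched on both strands of the 250 bases before the start in 32851 promoter windows. GGCGCC occurred in 9.59% of them and TTCTTGGAA in 0.365%, and the 2 searches cannot match the same bases. Of the other members, Tfr2, Tfrc and Bmp6 had windows in the table, and a GGCGCC match was found in windows of Tfrc. A match is a description of the letters and not evidence of binding.

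The stem-loops of the iron-regulatory type are shown because they separate the members that this control could reach from those in which none was found. The pattern was a C, 5 bases, the loop CAGTG followed by A, C or T, and 5 bases that pair with the first 5, searched in annotated untranslated regions (GENCODE M21, GRCm38). Capitals mark the first bases of the loop.
Slc40a1, 5′ untranslated region, chr1:45925471-45925487, minus strand: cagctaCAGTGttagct
Tfrc, 3′ untranslated region, chr16:32631225-32631241, plus strand: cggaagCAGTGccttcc
Tfrc, 3′ untranslated region, chr16:32631604-32631620, plus strand: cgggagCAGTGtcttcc
Tfrc, 3′ untranslated region, chr16:32631669-32631685, plus strand: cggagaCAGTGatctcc
Tfrc, 3′ untranslated region, chr16:32631716-32631732, plus strand: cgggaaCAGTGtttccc
Of 11500 coding genes of the table, 20 held such a loop in a 5′ untranslated region, among them Slc40a1, the ferritin genes Fth1 and Ftl1, and Alas2. In 3′ untranslated regions 79 genes held 1 or more, Tfrc among them with 4. The other 7 members held none by this pattern, which does not cover every known variant of the element.

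The libraries were sequenced to between 11965594 and 29976557 counted reads, with a median of 13620584. A value is a normalized CPM, the reads of a gene relative to a library size that was scaled between libraries, and 1 read was worth 0.0317 to 0.0864. The titles carry 48 animal numbers for 50 libraries, since 2 numbers stand on a pair of libraries each. The number of mice that the study gives for liver expression is neither of these counts, so whether every library is a separate mouse is not known. The library numbered 24 stood apart: Cyp2b13, a gene known from female mouse liver, was at 16.8 there and at most at 0.540 in the other 49. It is left out as an alternative below. All 8 hepatocyte markers, 8 of 8 sinusoidal endothelial markers and 8 of 8 Kupffer cell markers were in the table, with summed values of 86374 to 132078, 249 to 359 and 275.97 to 507 normalized CPM. Of the erythroid markers 6 of 8 were in the table (95.4 to 303 summed) and of the lymphocyte markers 2 of 5 (0.562 to 3.17). No neutrophil marker other than S100a9 was in the table, so that 1 of 4 was measured, at 0.240 to 2.99. The bulk tissue does not tell fewer cells of a type from less RNA per cell, which bears first on Bmp6.

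Hamp, the hepcidin gene (ENSMUSG00000050440, chr7:30942368-30944032, minus strand), was the highest of the 9 genes and varied widely. Its value was 120.6 in the lowest library, 375 at the median and 1033 in the highest, an 8.57-fold range, with a mean of 392 ± 166 (SD, n = 50). The highest library, numbered 7, lay apart from the next, at 845, while the lowest, numbered 45, had a close neighbour at 148. The coefficient of variation was 42.4%, which was higher than in 98.5% of the 200 genes nearest in mean value. Counting error made up 0.0961% of the variance between libraries.

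Hamp2, the neighbouring copy of hepcidin (ENSMUSG00000056978, chr7:30922372-30924681, minus strand), is not known to control iron as Hamp does. It ran from 17.4 over a median of 43.1 to 147 normalized CPM, with a mean of 51.7 ± 27.5 (SD, n = 50). Its coefficient of variation of 53.1% was the largest of the 9 and passed 99.5% of genes of similar mean. The library highest in Hamp2 was number 18 and the lowest number 11, neither of which was at an end of the Hamp range. The value of Hamp divided by that of Hamp2 had a median of 7.66 and went from 2.04 in library 24 to 31.1 in library 7. Of the 31-base stretches of the Hamp transcripts 33.7% also occur in Hamp2, and 23.1% of those of Hamp2 occur in Hamp, so that part of the reads could fit either gene; how reads fitting both were counted is not given in the sources used here.

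Bmp6, the ligand that drives hepcidin (ENSMUSG00000039004, chr13:38345107-38500302, plus strand), was low, with 2.98, 4.20 and 6.20 normalized CPM in the lowest, median and highest library and a mean of 4.28 ± 0.757 (SD, n = 50). These values rest on 38 to 131 reads. Counting error was 50.7% of the variance, the largest share among the members, and the coefficient of variation of 17.7% was at the 27th percentile of similar genes. About as much of its spread thus came from counting as from differences between the libraries. Of the exon bases of Bmp6 5.74% are shared with Txndc5, a gene on the other strand with a mean of 106. The strand setting of the counting is not given in the sources used here, so reads there may be misassigned.

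Id1, a direct target of BMP-SMAD signalling (ENSMUSG00000042745, chr2:152736251-152737410, plus strand), ran from 1.13 over 3.47 to 8.31 normalized CPM, with a mean of 3.76 ± 1.73 (SD, n = 50). Smad7, the inhibitory SMAD (ENSMUSG00000025880, plus strand of chromosome 18), ran from 1.92 over 4.33 to 7.39, with a mean of 4.22 ± 1.25 (SD, n = 50). The same library, number 21, was the highest for both. Id1 was more variable, with a coefficient of variation of 46.02% (97th percentile) against 29.6% for Smad7 (85.5th percentile). Counting error accounted for 8.51% of the variance of Id1 and 18.3% of that of Smad7.

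The receptors differed sharply in spread. Tfr2, the hepatocyte sensor (ENSMUSG00000029716, chr5:137569840-137587481, plus strand), was the steadiest member, from 247 over 294 to 356 normalized CPM with a mean of 293 ± 23.9 (SD, n = 50) and a coefficient of variation of 8.16%, at the 6.5th percentile of similar genes. Tfrc, the general importer of transferrin-bound iron (ENSMUSG00000022797, chr16:32608920-32632794, plus strand), went from 11.2 over 22.5 to 48.4, with a mean of 23.2 ± 8.02 (SD, n = 50) and a coefficient of variation of 34.7%, at the 97th percentile. Library 45, the lowest in Hamp, was the highest in Tfrc.

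Trf and Slc40a1 were intermediate. Trf, the plasma iron carrier (ENSMUSG00000032554, chr9:103204001-103230444, minus strand), went from 53.6 over 75.3 to 117 normalized CPM, with a mean of 76.5 ± 12.4 (SD, n = 50). Of its exon bases 63.5% are shared with Gm20425, an overlapping gene on the same strand that was not in the table, so its value is uncertain to that extent. Slc40a1, the iron exporter (ENSMUSG00000025993, chr1:45908068-45926523, minus strand), went from 89.7 over 135 to 207, with a mean of 138 ± 22.1 (SD, n = 50). Their coefficients of variation were 16.2% and 16.1%, at the 76.5th and 72nd percentile.

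**Figure D1:**
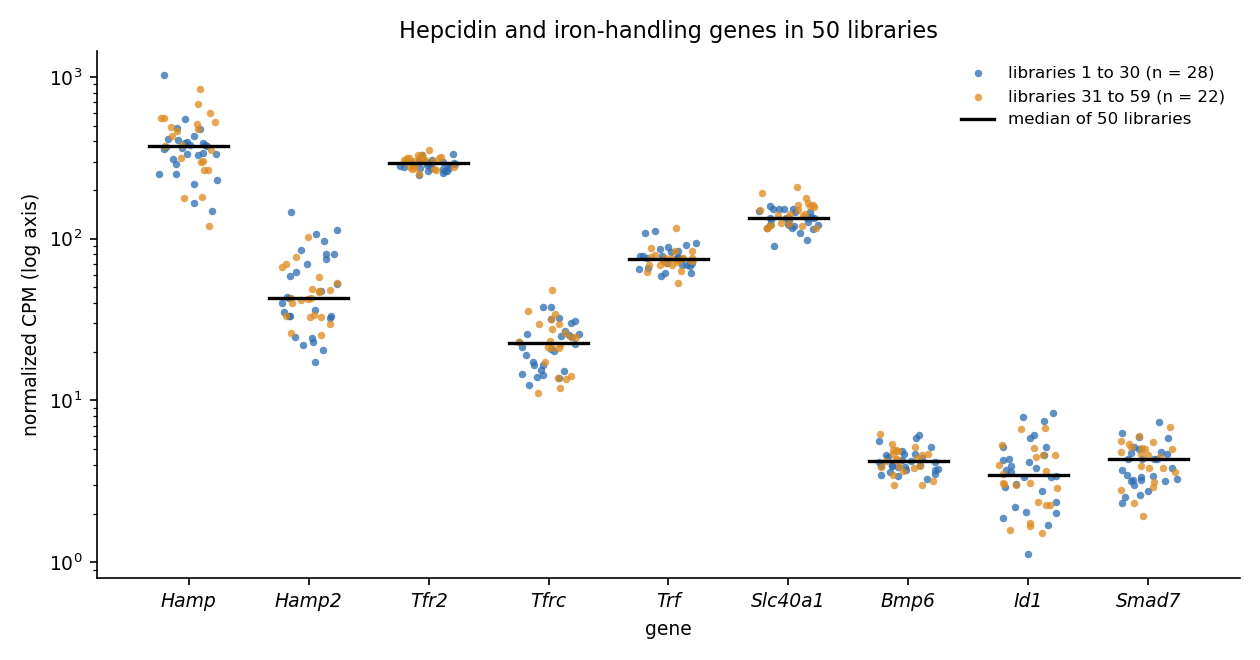
Normalized CPM of each member (log axis) in each library, 1 point per library, coloured by set of library numbers, with a line at the median of the 50. Hamp spans 120.6 to 1033 and Hamp2 17.4 to 147, while Tfr2 stays within 247 to 356.

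To compare levels of different genes, values were divided by kilobases of exon, with all annotated exons of a gene merged. In normalized CPM per kilobase, the order of the mean values was Hamp (955), Hamp2 (88.7), Tfr2 (67.7), Trf (23.1) and Slc40a1 (15.3). Below them came Tfrc (3.74), Id1 (3.24), Bmp6 (1.10) and Smad7 (0.933). Hamp was above Hamp2 in 50 of 50 libraries, by a ratio of the means of 10.8, and their ranges did not overlap. The ranges of Tfr2 and Trf did not overlap either, nor did those of Slc40a1 and Tfrc. The place of Trf in this order is uncertain, since 63.5% of its exon bases are shared with Gm20425. Its value was divided by the full exon length. Merged exons, 3320 bases for Trf and 9000 for Slc40a1, can exceed the transcript made in liver, which would understate a level. Places of genes near each other in the order depend on these lengths. Neighbours that did not differ beyond their spread were Hamp2 and Tfr2 (Hamp2 higher in 31 of 50 libraries), Tfrc and Id1 (33 of 50) and Bmp6 and Smad7 (32 of 50). Trf was above Slc40a1 in 49 of 50 libraries and Id1 above Bmp6 in 48 of 50, although their ranges overlapped.

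The pairs of libraries under 1 animal number gave a view of how far a value moved at the same label, though the labels do not say whether they are repeat libraries of 1 mouse. Hamp was 388 and 416 in libraries 8 and 10, which share the first of these numbers, and 291 and 356 in libraries 22 and 55, which share the second. Hamp2 was 24.8 and 22.03 under the first number but 108 and 48.6 under the second. Id1 was least alike, at 1.13 and 3.83 under the first number and 4.18 and 1.53 under the second, where Bmp6 was 3.97 and 3.99, and 4.39 and 5.14. Id1 and Hamp2 thus differed as much within a shared number as many libraries with different numbers did, and the fits below were repeated without these 4 libraries.

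Whether the members moved with the order of the libraries or animals was tested first, since 28 libraries are numbered 1 to 30 and 22 are numbered 31 to 59. None of the 9 members passed the threshold of an adjusted p of 0.05 (limma, Benjamini-Hochberg adjustment over all genes tested) between these sets (1 at an unadjusted p under 0.05, and 0 called by edgeR), where 13.8% of 11436 genes did (1575 called, 3349 at an unadjusted p under 0.05, and 1648 called by edgeR). The closest was Slc40a1, at 131 ± 17.03 (SD, n = 28) and 146 ± 24.9 (SD, n = 22), higher by 0.16 (SE 0.06) on the log2 scale in the second set with a limma adjusted p of 0.0673. With animal number, again none of the 9 passed (limma; 1 at an unadjusted p under 0.05, and 0 called by edgeR), against 14.2% of 11436 genes (1627 called, 3314 at an unadjusted p under 0.05, and 1593 called by edgeR). Of the 5 erythroid markers tested, all passed with animal number, the globin genes higher and Alas2 lower at higher numbers, and their part in the members' values was not tested. The median counted reads were 14432604 in the first set and 13284110.5 in the second.

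The 9 genes form 36 pairs, and 8 of them had an unadjusted permutation p under 0.05 by both Pearson and Spearman correlation of log2(value + 0.5) over the 50 libraries (100000 resamples, 2-sided; 9 by Pearson and 8 by Spearman). Adjusted p-values below come from limma fits of every gene on the level of 1 gene, over all genes tested, and the slopes are log2 units of the one gene per log2 unit of the other. Points of a pair share library, depth and normalization. Many other genes also reached an unadjusted p under 0.05 in these fits (limma). Of 11435 genes, 1153 did on the level of Hamp, 1143 on Bmp6, 1771 on Id1, 2811 on Tfrc and 3525 on Hamp2. The count of 8 of 36 pairs is thus not read as a trait of the members, and other sets of genes were not compared.

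**Figure D2:**
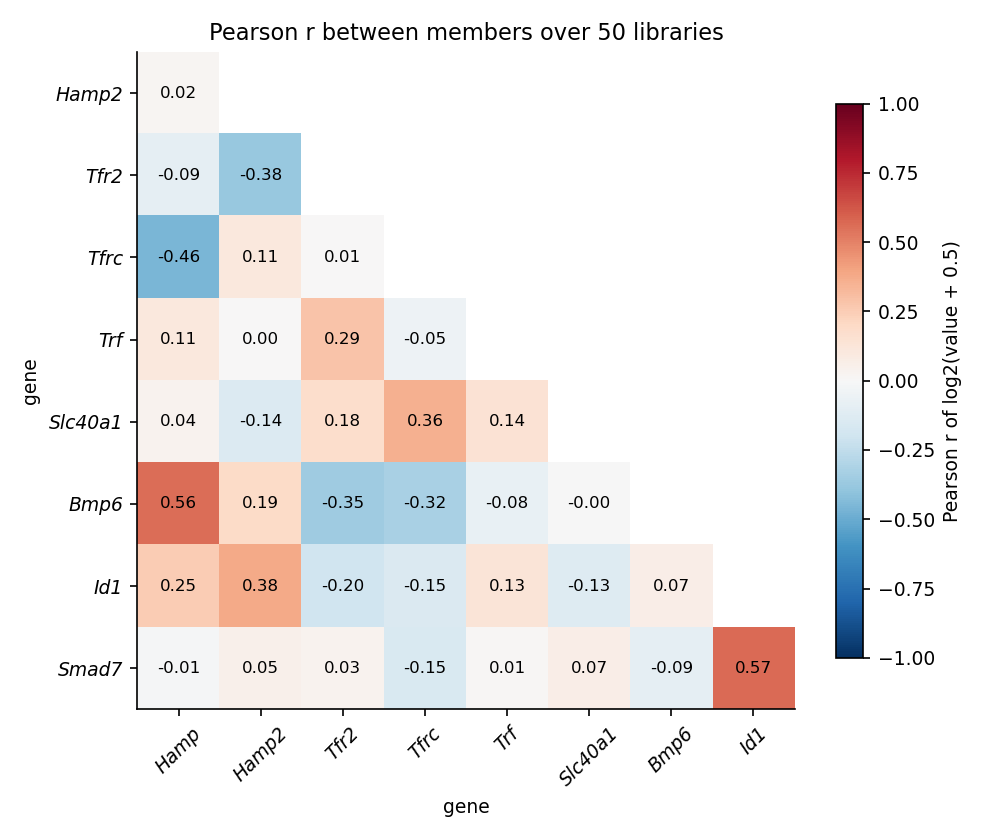
Pearson r of log2(value + 0.5) over 50 libraries for each of the 36 pairs of members, in rows and columns by gene, with colour from blue (negative) to red (positive). Id1 with Smad7 (0.57) and Hamp with Bmp6 (0.56) are the highest, and Hamp with Tfrc (-0.46) the lowest.

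Livers with more Bmp6 RNA had more Hamp RNA. The correlation was r = 0.557 (permutation p = 2e-05) and rho = 0.513 (permutation p = 0.00012), and r was 0.477 once libraries 45 and 7, those with the most extreme Hamp, were left out, 0.527 within libraries 1 to 30 and 0.588 within libraries 31 to 59. In the fit on the level of Bmp6, Hamp was higher by 1.495 (SE 0.31) log2 units per log2 unit with an adjusted p of 0.0428 (limma), 1 of the 3 genes called of 11435 (0.0262%) and the only 1 of 8 members. In the reverse fit on the level of Hamp, Bmp6 had a slope of 0.21 (SE 0.05) and an adjusted p of 0.09997 (limma). The unadjusted p of the pair was 1.12e-05 in the fit on Bmp6 and 3.82e-05 in that on Hamp (limma), and it stood on either side of the threshold after adjustment. The call on the level of Bmp6 was lost with edgeR on the recovered reads (adjusted p = 0.0631), with DESeq2 size factors (0.0523), with counted reads as a covariate (0.0555), without library 24 (0.0590) and without the 2 libraries farthest from the median of Bmp6 (0.162), while the slope stayed between 1.22 and 1.94 in every alternative run.

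Livers with more Tfrc RNA had less Hamp RNA. The correlation was r = -0.460 (permutation p = 0.00069) and rho = -0.453 (permutation p = 0.00114), with r = -0.338 without libraries 45 and 7, -0.594 within libraries 1 to 30 and -0.365 within libraries 31 to 59. Against Tfrc, Hamp had a slope of -0.56 (SE 0.15) and an adjusted p of 0.0186 (limma). It was 1 of 8 members called, where 6.67% of 11435 genes were, so the share of members was near that of all genes. Without the 2 libraries farthest from the median of Tfrc (numbers 45 and 56) the slope was -0.50 and the adjusted p 0.0611. With Hamp as the level, Tfrc had a slope of -0.38 (SE 0.10) and an adjusted p of 0.167 (limma).

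Bmp6 and Tfrc were themselves related at r = -0.321 (permutation p = 0.02315; adjusted p = 0.433 on the level of Bmp6, limma). Over the 50 libraries the level of Bmp6 took up 30.99% of the variance of log2 Hamp and that of Tfrc 21.2%, and the pair in 1 linear fit 39.8%. Adding Id1 brought this to 42.9%. With the other as a covariate, an alternative chosen after seeing the data, the slope of Hamp was 1.22 on Bmp6 (adjusted p = 0.239) and -0.38 on Tfrc (adjusted p = 0.0817, limma for both), so neither call held in the joint fits.

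**Figure D3:**
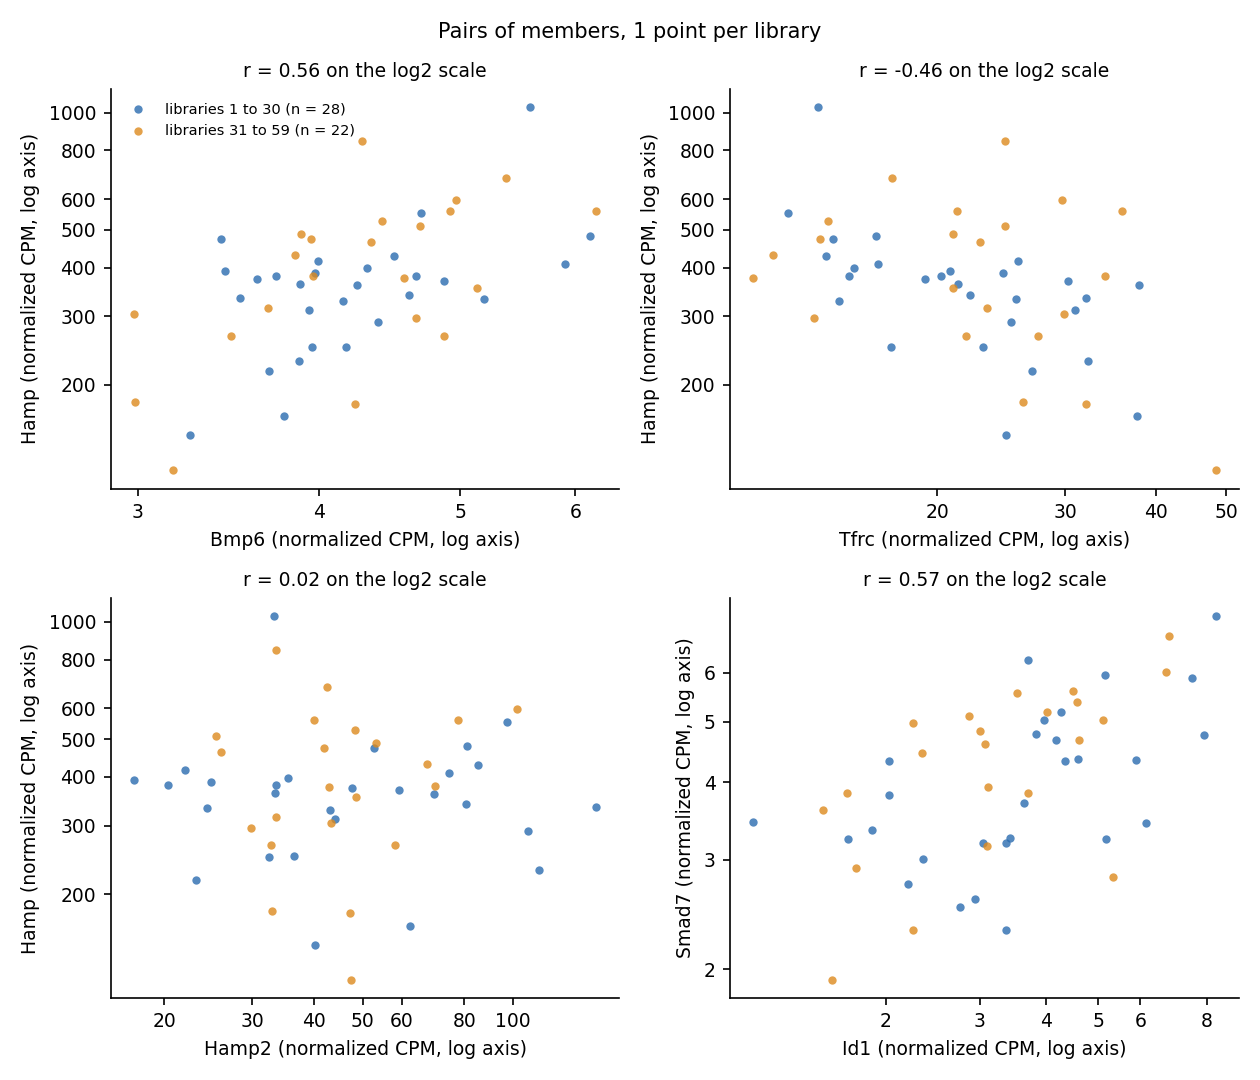
Values of 4 pairs of members in normalized CPM (log axes), 1 point per library, coloured by set of library numbers. Hamp is higher with Bmp6 and lower with Tfrc, Smad7 is higher with Id1, and Hamp shows no relation to Hamp2 (r = 0.02).

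**Figure D4:**
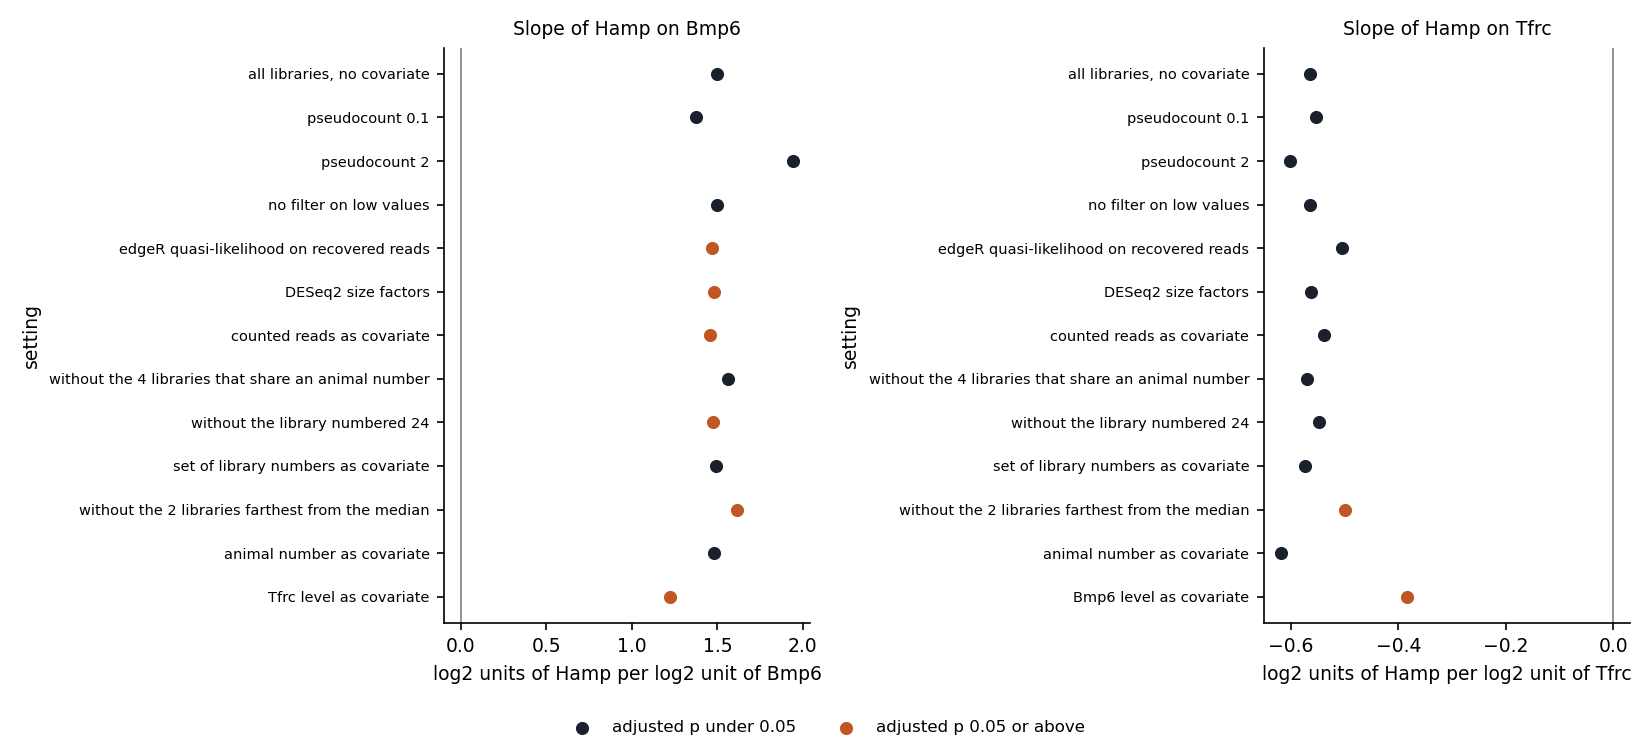
Slope of Hamp on the level of Bmp6 (left) and of Tfrc (right) on the log2 scale, 1 point per setting, coloured by whether the adjusted p is under 0.05. All points on the left lie between 1.22 and 1.94 and all on the right between -0.62 and -0.38, while the adjusted p crosses the threshold.

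The fit on the level of Hamp itself called 3 of 11435 genes (0.0262%; 1153 at an unadjusted p under 0.05, and 3 called by edgeR), and 0 of the other 8 members (limma; 2 at an unadjusted p under 0.05, Bmp6 and Tfrc, and 0 called by edgeR). Its own BMP-SMAD partners were not among them. Id1 had r = 0.251 with Hamp (permutation p = 0.07877) and rho = 0.203, and r = 0.101 without libraries 45 and 7; its slope of 0.24 (SE 0.13) had an adjusted p of 0.542 (limma). Smad7 had r = -0.0122, Slc40a1 0.0360, Tfr2 -0.0896 and Trf 0.108, with limma adjusted p from 0.827 to 0.985. The sign for Smad7 was positive with a pseudocount of 2 and with edgeR, and that for Slc40a1 was negative with the library set as a covariate.

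Among the pathway lists, 0 of the 16 genes of BMP-SMAD signalling upstream of the targets passed on the level of Hamp (limma; 3 at an unadjusted p under 0.05, and 0 called by edgeR), with a median slope of 0.02 against 0.00 for all genes. The lowest adjusted p in that list after Bmp6 was for Hfe, the hemochromatosis protein that acts with Tfr2, with a slope of 0.09 (SE 0.02) and an adjusted p of 0.167. The BMP-SMAD targets had a median slope of 0.19 with 0 of 8 called (2 at an unadjusted p under 0.05, and 0 by edgeR). Atoh8, a factor known to act on the Hamp promoter, had a slope of 0.21 (SE 0.06) and an adjusted p of 0.191 (limma). In iron storage, transport and control by iron regulatory proteins 0 of 16 were called by limma or edgeR, 2 had an unadjusted p under 0.05, and the median slope was 0.01. In heme handling these counts were 0 of 10 and 1, with a median of 0.02, and in the IL6-STAT3 acute phase 0 of 17 and 4, with a median of -0.04. Of the cell type markers 0 were called by either tool, and those at an unadjusted p under 0.05 were 1 of 8 for hepatocytes, 2 of 8 for sinusoidal endothelium, 2 of 6 for stellate cells and 0 of the 18 others.

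Saa1, an acute-phase gene read here for the inflammatory input, ran from 13.95 to 660.5 normalized CPM over the libraries (mean 67.6 ± 110 SD, n = 50). The fit on its level called 15 of 11435 genes (0.131%; 1176 at an unadjusted p under 0.05, and 28 called by edgeR) and 0 of 9 members by limma or edgeR (3 at an unadjusted p under 0.05: Tfr2, Id1 and Slc40a1). The genes most like it were Saa2 (r = 0.914), C4b (0.705), Hc (0.703), Orm2 (0.680) and Orm1 (0.634), which include serum amyloid, complement and orosomucoid genes; Saa1 and Saa2, and Orm1 and Orm2, are near copies. Hamp had r = 0.149 with Saa1 (permutation p = 0.29523), rho = 0.0725 and r = 0.113 without libraries 45 and 7, with a slope of 0.08 (SE 0.07) and an adjusted p of 0.749 (limma). Within the sets of libraries r was -0.177 and 0.352. Of the listed genes, those called on the level of Saa1 were Saa2, Orm1 and Orm2 of the acute phase and Hpx, the heme carrier hemopexin (0.13, adjusted p = 0.00985), all higher (limma). When the 2 libraries with Saa1 most distant from its median were dropped, the adjusted p of Orm2 was 0.249 and that of Orm1 0.0501.

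The gene most like Hamp, members included, was an RNA on its own chromosome. Gm4673 (chr7:30956909-30961619, plus strand), annotated as an antisense RNA, begins 12876 bases beyond Hamp with Usf2 between them, and ran from 0.877 over 2.18 to 8.72 normalized CPM. It had r = 0.714 (permutation p = 1e-05, the smallest the resampling can give) and rho = 0.597 (permutation p = 3e-05) with Hamp, and r = 0.602 without libraries 45 and 7, 0.718 within libraries 1 to 30 and 0.734 within libraries 31 to 59. Its slope was 0.56 (SE 0.08) with an adjusted p of 2.79e-05 (limma), and on the level of Hamp2 it was -0.05 (SE 0.09; adjusted p = 0.765). Its values rest on few reads, 13 in the lowest library and 34.5 at the median.

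The window of 100000 bases on either side of Hamp holds 8 genes of the table, including Hamp and Hamp2. Usf2, which lies 1215 bases from Hamp and codes for a transcription factor, had r = 0.171 (adjusted p = 0.697). Lsr, the lipolysis-stimulated lipoprotein receptor, overlaps Gm4673 on the other strand, and had r = -0.415 with Hamp (adjusted p = 0.228, limma). The libraries were made with a stranded kit, but the strand setting of the counting is not given in the sources used here, so reads of the overlap may be split between Gm4673 and Lsr. Cd22, Fam187b and Fxyd5 had r from -0.0194 to 0.0417.

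With members left out, the other genes most like Hamp were Sap30bp (r = 0.647, slope 0.17, SE 0.03, adjusted p = 0.00581) and Tatdn2 (r = 0.620, slope 0.17, SE 0.03, adjusted p = 0.00865, limma), which were called, and Cd300lg (r = 0.550) and Ccrl2 (r = 0.544), which were not. Without libraries 45 and 7 the adjusted p of Tatdn2 was 0.216, and those of Sap30bp and Gm4673 were 0.0145 and 0.0241 (limma). The most opposite were Abhd18 (r = -0.532) and Slc47a1 (r = -0.529), and neither passed (limma adjusted p = 0.09997 and 0.104). On the level of Bmp6 the genes other than members most like it were Evi5l (r = 0.641) and Tmem218 (0.582), both called, then Plekha7 (0.541), Lrrc20 (0.541) and Mbd2 (0.536), and the most opposite were Adgre5 (-0.551) and Prodh2 (-0.515), none of these 5 called. The call of Tmem218 was lost with edgeR (adjusted p = 0.0631) and without libraries 31 and 25 (0.324). No sinusoidal endothelial marker passed on the level of Bmp6 (0 of 8 by limma or edgeR, and 0 of 8 at an unadjusted p under 0.05), with a median slope of 0.05. None of the genes of the other lists passed on the level of Bmp6 either (limma), the most at an unadjusted p under 0.05 being 2 of the 16 genes of iron storage, transport and control.

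Id1 and Smad7 moved together, with r = 0.566 (permutation p = 1e-05, the smallest possible), rho = 0.553 (permutation p = 2e-05), 0.532 without libraries 8 and 21, 0.570 within libraries 1 to 30 and 0.614 within libraries 31 to 59. In the fit on Id1, Smad7 had a slope of 0.38 (SE 0.08) and an adjusted p of 0.0158 (limma), 1 of 8 members where 0.324% of 11435 genes were called (37, with 1771 at an unadjusted p under 0.05). Leaving out libraries 8 and 21, at the ends of the Id1 range, kept the slope at 0.38 but moved the adjusted p to 0.0746, and over all alternatives it lay between 0.0102 and 0.0746. Hamp had a slope of 0.26 (SE 0.14) and an adjusted p of 0.360 on the level of Id1 (limma).

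Id3 and Id2, inhibitors of differentiation like Id1, were the closest partners of Id1 among the BMP-SMAD targets. Id3 (mean 18.8 ± 8.91 SD, n = 50) had r = 0.734 and a slope of 0.74 (SE 0.10) with an adjusted p of 2.81e-06, and Id2 (mean 58.5 ± 20.7 SD, n = 50) had r = 0.586 and a slope of 0.52 (SE 0.10) with an adjusted p of 0.00836 (limma). Of the 7 targets tested, 3 were called (Id2, Id3 and Smad7) and Atoh8, Bambi, Smad6 and Smad9 were not. None of the genes of the other pathway and marker lists passed with Id1 (limma), where edgeR called 2 of the acute phase and 1 cholangiocyte marker. The genes most like Id1 outside the list of members were Id3, Hes1 (r = 0.658), Slc8b1 (0.604), Id2 and Erf (0.569), and the most opposite were Atrn (-0.578) and Slc22a23 (-0.574). All 7 passed the threshold (limma and edgeR). Without libraries 8 and 21 only Id3 and Hes1 of the 7 still passed, with Id2 at an adjusted p of 0.0595, and without the 4 libraries sharing animal numbers 6 passed, all but Erf (0.0644). Bmp6 had r = 0.0680 with Id1 and -0.0867 with Smad7, with permutation p of 0.63829 and 0.5506.

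With Tfrc as the level, 763 of 11435 genes were called (limma), and among the iron genes these were Slc25a28, a mitochondrial iron importer, lower by 0.25 (SE 0.04; adjusted p = 0.00122), and Slc39a14, a transporter of iron not bound to transferrin, higher by 0.24 (SE 0.07; adjusted p = 0.0437), though edgeR did not call it (adjusted p = 0.0533). The other 14 of that list did not pass, including Fth1 (slope -0.09, adjusted p = 0.299) and Ftl1 (-0.07, 0.383), the ferritin genes. In heme handling Blvra (-0.22, adjusted p = 0.0123) and Slc48a1 (-0.10, 0.0387) were lower, in the BMP-SMAD list Smad1 was lower (-0.19, 0.0320), and in the acute phase Orm1 was lower (-0.41, 0.0149). Against 6.67% of all genes, limma called 1 higher and 1 lower of 16 iron genes, with a median slope of 0.003, and edgeR called 1. Called lower by limma were 2 of 10 heme, 1 of 16 upstream BMP-SMAD and 1 of 17 acute-phase genes. The lists were not tested against all genes. Clec4g was the only 1 of 8 sinusoidal endothelial markers called, lower by 0.20 (SE 0.06). Its part in these relations was not tested. The genes most like Tfrc were 1700020I14Rik (r = 0.667), Caprin1 (0.660), Abcg3 (0.659), Itsn1 (0.657) and Slfn5 (0.640), and the most opposite were Cd82 (-0.670) and Chmp6 (-0.639). All 7 passed (limma).

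Slc40a1 was higher with Tfrc, at r = 0.358 (permutation p = 0.0112), rho = 0.306, r = 0.348 without libraries 45 and 56, 0.402 within libraries 1 to 30 and 0.320 within libraries 31 to 59, but its slope of 0.17 (SE 0.06) had an adjusted p of 0.0832 (limma) and did not pass. Tfr2 had r = -0.352 with Bmp6 (permutation p = 0.01212; adjusted p = 0.426, limma) and r = -0.379 with Hamp2 (permutation p = 0.00691; adjusted p = 0.0560, limma). Tfr2 with Trf had r = 0.286 (permutation p = 0.04371) and rho = 0.181 (permutation p = 0.2066), and r was 0.109 without libraries 44 and 30, so that this relation rests on those libraries.

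Hamp2 did not follow Hamp. The correlation was r = 0.0218 (permutation p = 0.88189) and rho = 0.0649, and r lay between -0.0207 and 0.0665 when each library was left out in turn. In library 7, the highest in Hamp, Hamp2 was 33.3, and in library 45, the lowest in Hamp, it was 47.5. The promoter windows of Hamp and Hamp2, printed above, differ in the BMP response element and at other places. No binding was measured, and the part of these differences in the levels was not tested.

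The level of Hamp2 was added as a regressor after the values were seen. It called 1807 of 11435 genes (15.8%; 3525 at an unadjusted p under 0.05, and 1858 called by edgeR), and 1 of 8 members (limma). That member was Id1, with r = 0.377 (permutation p = 0.00661), a slope of 0.31 (SE 0.11) and an adjusted p of 0.0367. The adjusted p was 0.0502 without library 24 and 0.118 without libraries 18 and 24, and the share of members, 1 of 8, was near that of all genes. Bmp6 (r = 0.188), Tfrc (0.108), Trf (0.00363), Slc40a1 (-0.136) and Smad7 (0.0514) had permutation p from 0.19099 to 0.98026.

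The genes most like Hamp2 were liver enzymes and others: Aldh1b1 (r = 0.734), an aldehyde dehydrogenase, Idh2 (0.726), Sult1a1 (0.723), a sulfotransferase, Mmd2 (0.720) and Cyp2a4 (0.717), a cytochrome P450 known to be higher in female mice. The most opposite were Mup8 (-0.782), a major urinary protein gene, and Cyp7b1 (-0.779), an oxysterol hydroxylase, both known to be higher in adult males. Cyp7b1 ran from 6.97 to 218.19 normalized CPM, with a slope of -1.40 (SE 0.15) on Hamp2 and an adjusted p of 1.32e-08 (limma), and r was -0.743 without libraries 18 and 24, -0.847 within libraries 1 to 30 and -0.772 within libraries 31 to 59. Sult1a1 had a slope of 0.40 (SE 0.05), an adjusted p of 6.20e-07 and r of 0.740 and 0.710 within the sets. Mup genes and Cyp2a4 belong to families of near copies whose reads may be shared.

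**Figure D5:**
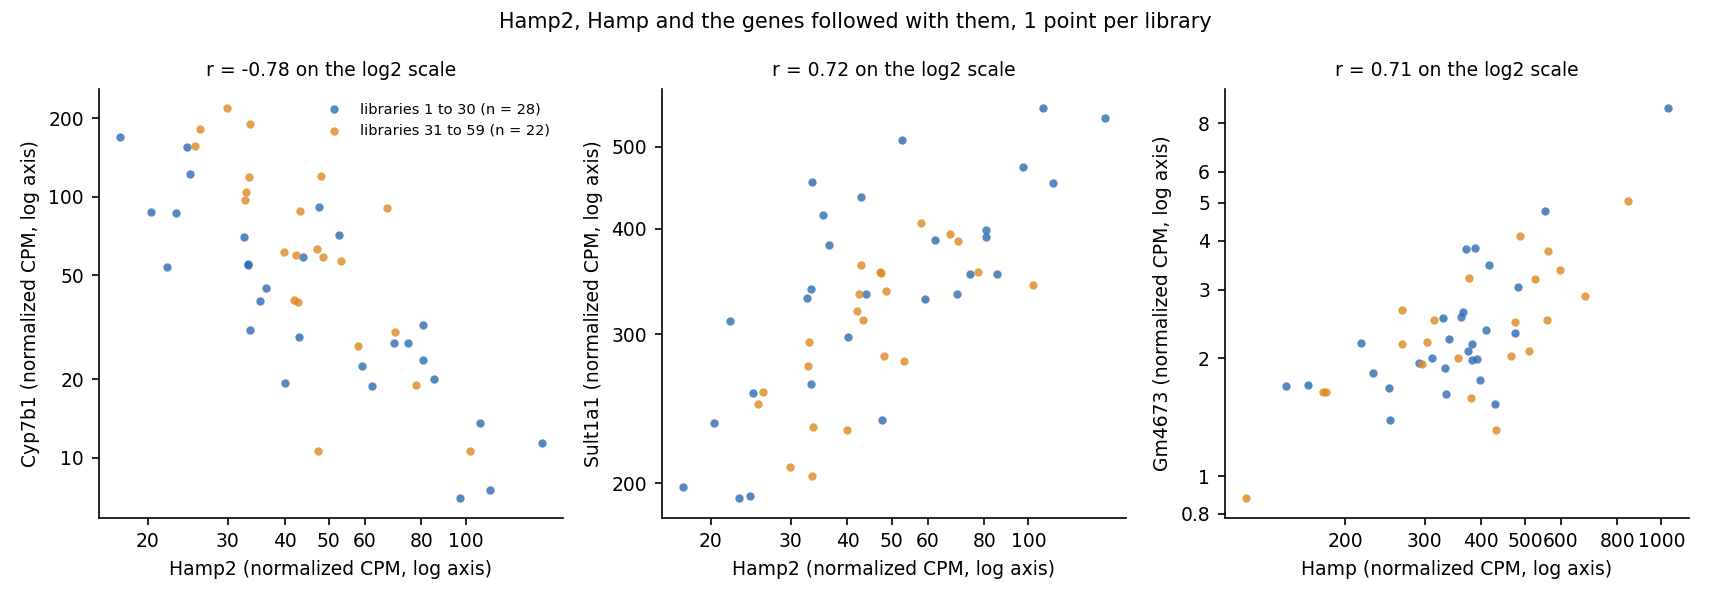
Values in normalized CPM (log axes) of Cyp7b1 and Sult1a1 against Hamp2 and of Gm4673 against Hamp, 1 point per library, coloured by set of library numbers. Cyp7b1 is lower and Sult1a1 higher where Hamp2 is higher (r = -0.78 and 0.72), and Gm4673 is higher where Hamp is (r = 0.71).

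Of the iron and heme lists, genes called on the level of Hamp2 were Hmox1, heme oxygenase (slope 0.27, SE 0.05, adjusted p = 0.000476), haptoglobin (Hp, 0.19, adjusted p = 0.00365) and Steap3, a ferrireductase (0.14, 0.0468, and 0.0568 with edgeR), all higher, and Slc25a37 (-0.25, 4.48e-05), Cd163, the hemoglobin scavenger receptor (-0.28, 0.00422), Blvrb (-0.20, 0.00849), Cp, the ferroxidase ceruloplasmin (-0.13, 0.00774), and Ireb2, an iron regulatory protein (-0.10, 0.0190), all lower (limma). In BMP-SMAD signalling, hemojuvelin (Hfe2 in the table; 0.20, 0.00769) and Eng (0.10, 0.0161) were higher, and Smad9 (-0.32, 0.0486) and Tmprss6, the protease that cleaves hemojuvelin (-0.08, 0.0396), were lower. In the acute phase Lcn2 (0.64, 0.00478), Fgg (0.12, 0.00618) and Hp were higher and Orm1 was lower (-0.26, 0.0122), and the other 13 did not pass. Cell type markers moved with Hamp2 as well: S100a9, of neutrophils, was higher (0.45, adjusted p = 0.000774), as were Alb (0.18) and the stellate marker Des (0.22), while Cyp2e1 (-0.27), Apob (-0.18) and the erythroid Alas2 (-0.17) were lower. The other 4 erythroid markers, the globin genes, had slopes of the opposite sign, 0.29 to 0.32, and adjusted p of 0.0538 to 0.0662, with Hbb-bt called by edgeR. Against the 15.8% of all genes, limma called 1 higher and 3 lower of 16 iron genes and 2 and 2 of 10 heme genes. It called 2 and 2 of 16 upstream BMP-SMAD genes, 1 and 1 of 8 BMP-SMAD targets and 3 and 1 of 17 acute-phase genes. Of the markers, 3 of 8 hepatocyte, 1 of 5 erythroid, 1 of 6 stellate and 1 of 1 neutrophil markers passed. By limma 0 of 8 sinusoidal endothelial (4 at an unadjusted p under 0.05, and 1 called by edgeR), 0 of 4 cholangiocyte (2 and 0) and 0 of 8 Kupffer cell markers (0 and 0) did. The lists were not tested against each other, and the part of these markers in the relations of Hamp2 was not tested. Alb, Alas2, Hfe2, Tmprss6, Hp, Lcn2, Slc25a37 and Steap3 also passed with animal number, in the same direction as with Hamp2 (limma). With animal number as a covariate 1240 genes were called on the level of Hamp2, against 1807 without it.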

How the data were processed

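Stranded poly(A) libraries were made from liver RNA. The authors trimmed reads (Trim Galore in the submitters' processing notes, Trimmomatic in the study's methods), used HISAT2 for alignment to GRCm38.p5 and HTSeq 0.11.1 for counting, removed low genes and normalized with edgeR. The deposited signal is CPM of a scaled library size (columns sum to 886171 to 1120647). Dividing by the value of 1 read gave whole reads for 100% of values within 0.01. The design had assumed a normalized unit, so limma 3.58.1 (R 4.3.3) was fitted to log2(value + 0.5) of the 11436 genes with a mean of at least 1 (the regressor's own gene left out), 2-sided, Benjamini-Hochberg over all genes, threshold 0.05, in all 50 libraries. Alternatives used edgeR 4.0.16 on recovered reads, DESeq2 1.42.0 size factors, other pseudocounts, filters, covariates and left-out libraries. Counting error is the mean times the value of 1 read over the variance. Genes named were the members, the 5 genes most like and 2 most opposite to each level (members left out of the ranking), list genes past the threshold, and others chosen after their values were seen. Members and lists were chosen with earlier results of these data known. The labels do not say whether libraries of 1 animal number are separate mice, so p-values measure the spread between libraries. The fits were tested on simulated data. Sequences came from RefSeq (GRCm38.p6; Hamp, Hamp2, Tfr2, Tfrc and Bmp6 matched, 5 of 9) and GENCODE M21 transcripts. Python 3.11.15 with numpy, pandas, scipy and matplotlib was used.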

Additional observations from a re-analysis of the deposited data

How the results depend on the processing

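No paired analysis was possible because the libraries form 1 group. The number of members called on the level of each gene changed as follows. For Bmp6 it was 1, and 0 with edgeR, DESeq2 size factors, counted reads as a covariate, without library 24, without the 2 libraries farthest from the median and with Tfrc as a covariate. For Tfrc it was 1, and 0 without the 2 farthest libraries and with Bmp6 as a covariate. For Id1 it was 1, and 0 without the 2 farthest. For Hamp2 it was 1, 2 without the 4 libraries sharing animal numbers (Tfr2 then at adjusted p = 0.0239), and 0 without library 24 or the 2 farthest. For Hamp it was 0, and 1 with library set as a covariate (Bmp6, adjusted p = 0.0462). Among all genes, calls moved from 1575 to 898 between the sets of libraries with counted reads as a covariate. On Hamp they went from 3 to 10 with the set and to 7 with animal number as a covariate. On Id1 they went from 37 to 8 without the 4 libraries, 24 without library 24, 2 without the 2 farthest and 6 with Hamp2 as a covariate. On Bmp6 they went from 3 to 1 with edgeR, counted reads, without the 2 farthest or with Tfrc, and to 9 with animal number. On Saa1 they went from 15 to 28 with edgeR and to 86 without the 2 farthest, and on Hamp2 from 1807 to 796 without the 2 farthest. Slopes on Hamp changed sign for Smad7 (0.00143 with pseudocount 2 and 0.0247 with edgeR) and Slc40a1 (-0.000542 with the set). The causes were not tested. Of 353 comparisons of single values with an alternative, 337 were counted as kept. For slopes this meant the same direction and side of the threshold, and for correlations the same direction only. A mean value counted as kept when it differed from the main mean by less than the SD. The total includes such means and slopes without a call that stayed without one, so it does not measure how firm the calls were. The call of Hamp held in 6 of 12 alternatives on Bmp6 and in 10 of 12 on Tfrc. That of Smad7 on Id1 held in 11 of 12, and that of Id1 on Hamp2 in 9 of 11. Precision was limited by reads for Bmp6, Id1 and Smad7, with medians of 59.5, 52 and 63.5 reads per library, and intervals for counting error were not computed.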
